A study of Homo sapiens with 15 samples.

Results

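Expression of 6 genes that mark or control stemness and differentiation in the colon, PROM1, SOX9, KLF4, MYC, MYB and CDH1, was followed across every sample of the study. They were chosen by symbol from the 730 endogenous genes of the panel, so 6 of 730 genes are described. HCT116 is a human colorectal cancer cell line. The cells were left untreated (control) or exposed for 24 h to thymoquinone (TQ, a plant quinone) at 40 µM, to 5-fluorouracil (5-FU, a pyrimidine analog used in chemotherapy) at 15 µM, to a mixture of 35 µM TQ and 35 µM 5-FU (Combi), or to 35 µM of SARB, a hybrid in which TQ and 5-FU are joined through an ester. Each of the 5 groups had 3 biological replicates, giving 15 samples of 1 cell line grown as a bulk culture. Doses therefore match only between Combi and SARB. The study asked how gene expression differs between treated and untreated cells and among the treatments.

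In the colonic crypt, stem and progenitor cells at the base divide under WNT signaling and their daughters stop dividing and differentiate as they move toward the surface. PROM1 encodes CD133, a membrane glycoprotein used as a marker of colorectal cancer stem cells. SOX9 is a transcription factor of crypt base cells and a WNT target, while MYC and MYB are transcription factors that keep progenitors proliferating. KLF4 is a zinc-finger transcription factor of differentiated colonocytes and goblet cells that restrains the cell cycle, and CDH1 encodes E-cadherin, the adhesion protein of epithelial adherens junctions.

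The assay, NanoString nCounter, captures each transcript with a probe pair and counts its color barcode without amplification. The total over the 730 endogenous genes lay between 135017 and 607782 counts per sample. Values are given as scaled counts, which are raw counts multiplied by 1 factor per sample that makes the geometric mean of the 40 housekeeping genes equal in all samples, and these factors ran from 0.49 to 2.45. All 6 genes were above the background of the 8 negative probes (their mean plus 2 SD) in all 15 samples, with raw counts from 21 for MYB to 4030 for MYC. The epithelial markers CDH1 and MET were above background in all 15 samples, whereas the fibroblast markers PDGFRA, PDGFRB, COL1A2 and COL3A1 and the leukocyte marker CSF1R were above it in none. By the names of the raw files, the samples ran on 3 cartridges, the cassettes in which barcodes are counted. No label states the cartridge, so this assignment is a reading of those names. Control replicate 1 and all TQ, 5-FU and SARB samples shared cartridge 1, control replicates 2 and 3 and Combi replicate 1 shared cartridge 2, and Combi replicates 2 and 3 were on cartridge 3. Combi shared no cartridge with TQ, 5-FU or SARB, so in each comparison of Combi with another treatment cartridge and treatment cannot be told apart. A fit with cartridge as a block sets TQ, 5-FU and SARB against control replicate 1, and Combi replicate 1 against control replicates 2 and 3.

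A gene is called higher or lower where edgeR's quasi-likelihood test gave a p of at most 0.05 after Benjamini-Hochberg adjustment over the 730 genes, together with a fold change of 1.5 or more. The standard error (SE) and the 95% interval of a log2 fold change come from the same fit. The comparisons with control share the same 3 control samples. Relative to the housekeeping genes, the whole panel had a median log2 change against control of -0.47 (TQ), -0.27 (5-FU), -0.10 (Combi) and -0.41 (SARB). With TMM normalization, which centers the bulk of the panel, these medians were -0.02, -0.07, -0.02 and -0.07. A log2 change near the panel's own median therefore shrinks toward 0 under TMM, and both values are given where the call or the direction depends on this choice.

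The 2 genes with the widest range over the treatments were MYC and CDH1, which moved in opposite directions. TQ had the highest MYC and the lowest CDH1 of all groups, and Combi had the highest CDH1 together with the lowest mean of MYC. KLF4 and MYB were called lower in both 5-FU and SARB with housekeeping scaling. Under TMM only MYB in 5-FU kept its call, and DESeq2 and cartridge as a block kept none of these 4 calls. PROM1, SOX9 and MYC were called in no comparison with control, and MYC was called in TQ under TMM.

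KLF4 and MYB are the pair called lower together in 5-FU and in SARB with housekeeping scaling, so the 250 bases upstream of their transcription starts are shown (RefSeq, build GRCh38.p14). Capitals mark matches, on either strand, to motifs named for the factors of this system, which are CTTTGNT (TCF/LEF core), GGGCGG (GC box, the type bound by SP and KLF factors), CACGTG (the E-box of MYC), CCAAT (the box bound by nuclear factor Y) and CAACNG (MYB core). The KLF4 window is chr9:107489770-107490019 on the minus strand and the MYB window chr6:135181058-135181307 on the plus strand.
KLF4: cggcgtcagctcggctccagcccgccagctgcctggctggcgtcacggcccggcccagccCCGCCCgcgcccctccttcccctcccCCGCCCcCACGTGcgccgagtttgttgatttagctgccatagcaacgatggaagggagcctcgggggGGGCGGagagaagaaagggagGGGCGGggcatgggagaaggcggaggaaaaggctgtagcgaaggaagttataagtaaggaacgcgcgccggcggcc
MYB: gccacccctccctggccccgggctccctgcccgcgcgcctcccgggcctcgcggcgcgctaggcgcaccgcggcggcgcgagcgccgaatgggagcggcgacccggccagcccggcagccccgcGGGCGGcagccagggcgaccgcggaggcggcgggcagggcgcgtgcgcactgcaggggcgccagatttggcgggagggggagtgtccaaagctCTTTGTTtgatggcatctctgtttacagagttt
The KLF4 window held 4 GC boxes and 1 E-box, with no match to the other motifs. The MYB window held 1 GC box and 1 TCF/LEF core, the latter 33 bases before the start. Of 35116 upstream windows of the same length, 42.6% held a GC box, 13.2% a TCF/LEF core, 6.35% the E-box, 32.0% a CCAAT box and 27.0% a MYB core. None of the printed capitals belonged to motifs that overlapped each other. PROM1 had 4 annotated windows, in which the matches were a CCAAT box, a MYB core, a GC box and a TCF/LEF core, 1 in each. A match is only a string of letters, and binding was not measured.

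PROM1, the stem cell marker, measured 157, 168 and 197 scaled counts in the 3 control samples. The values were 181, 122 and 113 in TQ, 107, 124 and 140 in 5-FU, 170, 192 and 212 in Combi, and 134, 150 and 127 in SARB. Every 5-FU and SARB sample lay below every control sample, whereas TQ and Combi overlapped with control. In 5-FU the log2 fold change of PROM1 was -0.49 (SE 0.18, 95% interval -0.86 to -0.13, edgeR quasi-likelihood adjusted p = 0.0411), a fold change of 1.41 that stayed short of 1.5. It was called lower, at -0.59, when 5-FU replicate 3 was left out, and in no other run with a sample left out. Without control replicate 1 the change was -0.56 (edgeR adjusted p = 0.0332). Without control replicate 3 or 5-FU replicate 1 it was -0.40 in each case (edgeR adjusted p = 0.165 and 0.177). Under TMM the PROM1 change in 5-FU was -0.30 (edgeR adjusted p = 0.233) and with DESeq2 -0.29, neither called. With cartridge as a block it was -0.35. In SARB the PROM1 change was -0.36 (SE 0.17, edgeR adjusted p = 0.101), and after TMM it was 0.00. In Combi it was 0.14 with an interval from -0.20 to 0.49 (edgeR adjusted p = 0.602). In TQ the change was -0.37 (edgeR adjusted p = 0.104), with replicate 1 at 181 and the other replicates at 122 and 113, and the sign turned under TMM (0.10). Raw counts of PROM1 were 66 to 364, and fewer CD133-expressing cells and less PROM1 RNA per cell cannot be told apart in bulk RNA, which holds for all 6 genes.

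Between treatments, PROM1 was called higher in Combi than in 5-FU, by 0.64 on the log2 scale (SE 0.17, edgeR quasi-likelihood adjusted p = 0.00998). After TMM the difference was 0.54, below the fold limit, and without 5-FU replicate 1 or Combi replicate 3 it was 0.54 and 0.56, not called. It was 0.25, also not called, with cartridge as a block. SARB differed from Combi at equal dose by -0.50 (95% interval -0.83 to -0.17, edgeR adjusted p = 0.0349, fold 1.41), with no overlap of samples. That difference was -0.24 under TMM (edgeR adjusted p = 0.327) and -0.12 with cartridge as a block (edgeR adjusted p = 0.997). The order of mean PROM1 levels was Combi, control, TQ, SARB and 5-FU, and no neighbors in it differed beyond their spread.

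SOX9, the crypt base transcription factor, measured 887, 936 and 1382 scaled counts in control. It was 791, 850 and 711 in TQ, 1119, 1098 and 1054 in 5-FU, 1123, 876 and 850 in Combi, and 841, 720 and 709 in SARB. All TQ and SARB samples lay below the lowest control sample, and the 5-FU samples lay inside the control range. The log2 fold change of SOX9 was -0.44 in TQ (SE 0.15, edgeR quasi-likelihood adjusted p = 0.0300) and -0.50 in SARB (SE 0.15, adjusted p = 0.0129), at folds of 1.36 and 1.41. Under TMM these became 0.04 in TQ, with the sign turned, and -0.13 in SARB. Control replicate 3 had the highest SOX9 of all samples. Without control replicate 1 or 2, so that replicate 3 weighed more, SOX9 was called lower in SARB (-0.61 and -0.59). Without control replicate 3 the differences were -0.27 in SARB (edgeR adjusted p = 0.144) and -0.21 in TQ (edgeR adjusted p = 0.264), and with cartridge as a block -0.23 and -0.17. The changes were 0.03 in 5-FU (95% interval -0.28 to 0.34) and -0.17 in Combi (-0.48 to 0.14). The order of means was 5-FU, control, Combi, TQ and SARB, and no neighbors were called different. Combi and TQ did not overlap by a narrow margin, with 850.43 in Combi replicate 3 and 850.26 in TQ replicate 2. Combi lay wholly above TQ for 44.8% of all genes.

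MYC, a WNT target that drives proliferation, measured 1818, 1503 and 1879 scaled counts in control and 2598, 2485 and 2307 in TQ. It was 1513, 1398 and 1394 in 5-FU, 1302, 1036 and 1150 in Combi, and 1433, 1077 and 1161 in SARB. All TQ samples lay above all other samples, and all Combi and SARB samples lay below the lowest control sample. In TQ the log2 fold change of MYC was 0.51 (SE 0.12, 95% interval 0.25 to 0.77, edgeR quasi-likelihood adjusted p = 0.00492), a fold of 1.42. Against the panel's median the gap was wider, since MYC was called higher under TMM (0.96). In Combi MYC differed from control by -0.58 (SE 0.12, edgeR adjusted p = 0.000976) and in SARB by -0.50 (SE 0.12, edgeR adjusted p = 0.00333), at folds of 1.49 and 1.42. The Combi difference was called (-0.67) without control replicate 2 and (-0.66) without Combi replicate 1, and the SARB difference (-0.59 and -0.63) without control replicate 2 or SARB replicate 1. With limma on the deposited signal both were called (-0.67 and -0.62). Over all runs with a sample left out, the MYC difference ran from -0.67 to -0.50 for Combi and from -0.63 to -0.42 for SARB. Under TMM the MYC difference was -0.49 in Combi and -0.15 in SARB. Blocking on cartridge gave MYC differences from control of 0.44 for TQ, -0.38 for Combi and -0.57 for SARB. The TQ and SARB values rest on control replicate 1 alone, and the Combi value on Combi replicate 1 alone. In 5-FU the MYC change was -0.27 (edgeR adjusted p = 0.108).

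Between treatments MYC was called higher in TQ than in 5-FU by 0.78 (SE 0.12, edgeR quasi-likelihood adjusted p = 5.97e-05), lower in SARB than in TQ by -1.01 (SE 0.12, edgeR adjusted p = 2.55e-06) and lower in Combi than in TQ by -1.08 (SE 0.12, edgeR adjusted p = 6.32e-07). These 3 calls held under TMM and every other alternative run. Cartridge as a block was no check on TQ against 5-FU or SARB against TQ, since these groups were all on cartridge 1. For Combi against TQ that fit rests on Combi replicate 1 and on control replicate 1, the only control sample of cartridge 1. SARB and Combi differed in MYC by 0.08, with an interval from -0.18 to 0.33 (edgeR adjusted p = 0.685). The order of means was TQ, control, 5-FU, SARB and Combi, and among neighbors only TQ and control did not overlap.

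MYB, the progenitor transcription factor, had the lowest counts of the 6 genes, with raw counts of 21 to 112. It measured 58.8, 84.7 and 90.8 scaled counts in control, 51.4, 46.9 and 40.9 in TQ, 44.0, 46.6 and 43.1 in 5-FU, 48.9, 59.0 and 49.1 in Combi, and 46.3, 45.8 and 34.0 in SARB. All TQ, 5-FU and SARB samples lay below the lowest control sample, and Combi overlapped with control only through its replicate 2. MYB was called lower in TQ by -0.76 (SE 0.24, edgeR quasi-likelihood adjusted p = 0.0221), in 5-FU by -0.81 (SE 0.24, edgeR adjusted p = 0.0140) and in SARB by -0.92 (SE 0.24, edgeR adjusted p = 0.00453). In Combi the difference was -0.57 (95% interval -1.05 to -0.10, edgeR adjusted p = 0.0683), and it was called (-0.74) without control replicate 1. Under TMM the values were -0.27 in TQ, -0.61 in 5-FU and -0.56 in SARB, and only the 5-FU call was kept. Leaving out control replicate 2 or 3, or either of TQ replicates 2 and 3, ended the TQ call (-0.64 to -0.77), and the 5-FU call was lost without control replicate 2 or 3 (-0.75 and -0.69). MYB was called in none of the 6 comparisons between treatments, with differences between -0.34 and 0.24. The order of means was control, Combi, TQ, 5-FU and SARB, and no neighbors were called different. Control replicate 1, the only control sample on cartridge 1, had the lowest MYB of the control samples. With cartridge as a block the differences were -0.35 in TQ, -0.40 in 5-FU, -0.51 in SARB and -0.84 in Combi, none called. The Combi value rests on Combi replicate 1 alone.

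KLF4, the differentiation factor, measured 195, 240 and 321 scaled counts in control and 285, 309 and 323 in Combi. It was 176, 192 and 215 in TQ, 144, 157 and 179 in 5-FU, and 130, 162 and 174 in SARB. All 5-FU and SARB samples lay below every control sample, and Combi overlapped with control at the upper end. KLF4 was called lower in 5-FU by -0.66 (SE 0.17, edgeR quasi-likelihood adjusted p = 0.00530) and in SARB by -0.69 (SE 0.17, edgeR adjusted p = 0.00250). Under TMM the differences were -0.45 and -0.31, and neither was called. Without control replicate 3 they were -0.45 in 5-FU and -0.49 in SARB, again not called, and without SARB replicate 1 the SARB difference was -0.58, also not called. The block on cartridge gave -0.29 and -0.32. In TQ the change was -0.37 (edgeR adjusted p = 0.0865), turning to 0.11 under TMM, and in Combi it was 0.28 (95% interval -0.05 to 0.61, edgeR adjusted p = 0.228).

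At equal dose, SARB and Combi differed most in KLF4. SARB was lower by -0.97 on the log2 scale (SE 0.16, 95% interval -1.30 to -0.64, edgeR quasi-likelihood adjusted p = 0.000263), a fold of 1.96, and the call held under TMM (-0.70). With cartridge as a block the difference was -0.35 (SE 0.30, edgeR adjusted p = 0.997), resting on few samples because these groups shared no cartridge. KLF4 was also called higher in Combi than in 5-FU (0.94, edgeR adjusted p = 0.000358) and than in TQ (0.65, edgeR adjusted p = 0.00265), the latter falling to 0.28 under TMM. With the block these were 0.32 and 0.03, not called. SARB and 5-FU differed in KLF4 by -0.04, with an interval from -0.39 to 0.31. The order of means was Combi, control, TQ, 5-FU and SARB, and no neighbors in it were called different.

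CDH1, the epithelial adhesion gene, measured 213, 230 and 491 scaled counts in control, and replicate 3 alone made this the widest spread of any group (311 ± 156, SD, n = 3). It was 137, 116 and 152 in TQ, 308, 317 and 371 in 5-FU, 504, 574 and 558 in Combi, and 351, 332 and 362 in SARB. Every TQ sample lay below every other sample of the study and every Combi sample above every other. CDH1 was called lower in TQ by -1.23 (SE 0.23, edgeR quasi-likelihood adjusted p = 0.000539), a fold of 2.34, and higher in Combi by 0.81 (SE 0.21, edgeR adjusted p = 0.00445), a fold of 1.76. Both calls held under TMM (-0.73 and 0.93) and without any 1 sample, when the differences ran from -1.44 to -0.74 in TQ and from 0.61 to 1.30 in Combi. Within cartridge 1 the only control sample was at 213, above all TQ and below all 5-FU and SARB samples. Within cartridge 2 the Combi sample at 504 lay above control samples at 230 and 491. With cartridge as a block the differences were -0.69 in TQ (edgeR adjusted p = 0.181) and 0.49 in Combi (edgeR adjusted p = 0.285), not called.

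For 5-FU and SARB the CDH1 result depended on control replicate 3. With all samples the changes were 0.09 (95% interval -0.35 to 0.54) and 0.17 (-0.27 to 0.60). Without that sample they were 0.58 and 0.66, and SARB was then called higher. TQ, 5-FU and SARB were all on cartridge 1, so cartridge as a block was no check on the CDH1 differences among them. Between treatments CDH1 was called lower in TQ than in 5-FU by -1.32 (SE 0.23, edgeR quasi-likelihood adjusted p = 0.000137) and higher in SARB than in TQ by 1.40 (SE 0.22, edgeR adjusted p = 6.49e-05), and both calls held under every alternative run. It was called higher in Combi than in TQ by 2.04 (SE 0.22, edgeR adjusted p = 3.21e-07), or 1.18 with cartridge as a block (edgeR adjusted p = 0.109), and higher in Combi than in 5-FU by 0.72 (edgeR adjusted p = 0.0157). The latter call was lost without 5-FU replicate 1 or 2 or Combi replicate 2 or 3 (0.67 to 0.70), and the difference was -0.15 with cartridge as a block. SARB was lower than Combi by -0.65 (SE 0.20, edgeR adjusted p = 0.0298), which fell to -0.38 under TMM, not called, and turned to 0.22 with cartridge as a block. This call also ended without Combi replicate 2 or 3 or SARB replicate 1 or 3 (-0.61 to -0.68). In the order Combi, SARB, 5-FU, control and TQ, the neighbors Combi and SARB and the neighbors control and TQ were called different.

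**Figure D1:**
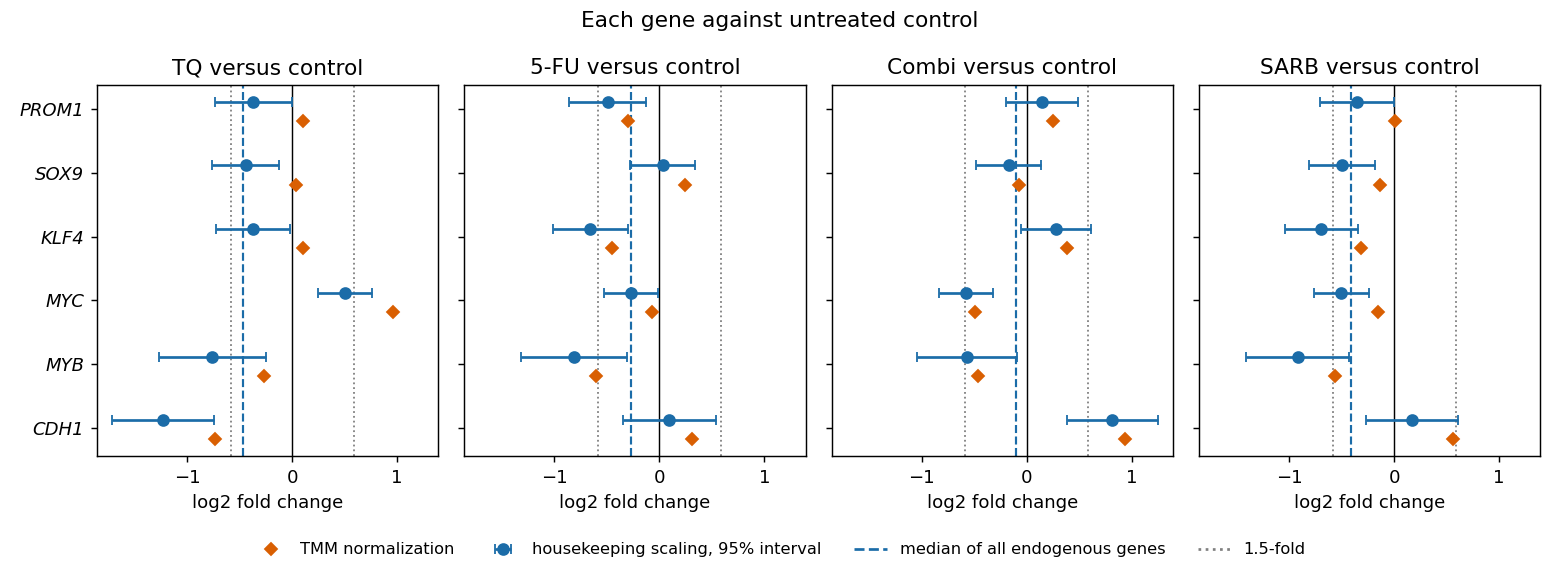
Log2 fold change against control (x axis) of each gene (y axis) in the 4 treatments, from housekeeping scaling with its 95% interval (blue circles) and from TMM normalization (orange diamonds). Dashed lines mark the median of all 730 genes, dotted lines a fold of 1.5. CDH1 lies at -1.23 in TQ and 0.81 in Combi, and MYC in TQ lies at 0.51, on the other side of 0 from CDH1.

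Counted together, 2 of the 6 genes were called lower in TQ and none higher, where 21.6% of all genes were called lower and 3.42% higher. In 5-FU 2 were lower and none higher, against 10.1% lower and 10.1% higher. In Combi 1 was higher and none lower, against 13.6% and 6.58%. In SARB 2 were lower and none higher, against 20% lower and 8.63% higher. At the adjusted p alone, without the fold limit, 4 members passed for TQ, 3 for 5-FU, 2 for Combi and 4 for SARB, beside 34.5%, 27.8%, 28.6% and 39.3% of all genes. The 6 genes had a median log2 change of -0.41 (TQ), -0.38 (5-FU), -0.01 (Combi) and -0.50 (SARB), beside the panel's medians given above. Every treated sample lay below every control sample for 3 of the 6 genes in TQ (39.5% of all genes), 3 in 5-FU (27.8%), 1 in Combi (16.7%) and 5 in SARB (28.9%). The treated samples were all above the control samples for 1 in TQ (6.16%) and 1 in Combi (19.3%), with none in 5-FU (16.3%) or SARB (13.2%).

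Between treatments, SARB against Combi called 2 of the 6 genes (12.2% of all genes), Combi against TQ 3 (34.1%), Combi against 5-FU 3 (11.8%), SARB against TQ 2 (19.5%) and TQ against 5-FU 2 (17.5%). SARB against 5-FU called none of the 6 and 1.23% of all genes. The largest difference in that last pair was SOX9 at -0.53 (95% interval -0.84 to -0.22, edgeR quasi-likelihood adjusted p = 0.0853), with no overlap between the groups. No member had an adjusted p of at most 0.05 in SARB against 5-FU, whose doses differed.

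The ratio of raw MYC to raw CDH1 counts within a sample needs no scaling and no housekeeping gene. It was 15.2 to 21.4 in TQ, 3.83 to 8.54 in control, 3.76 to 4.92 in 5-FU, 3.21 to 4.08 in SARB and 1.80 to 2.58 in Combi. TQ lay above and Combi below all other samples, and 5-FU and SARB overlapped with control. The pair was chosen for its opposite changes, so the ratio is a description and was not tested. A ratio shows only that MYC and CDH1 changed unequally. The ratio of KLF4 to CDH1 was 1.29 to 1.65 in TQ, 0.65 to 1.05 in control, 0.54 to 0.58 in Combi, 0.47 to 0.50 in 5-FU and 0.37 to 0.49 in SARB. Here too TQ lay above all other samples, while the Combi samples lay below control although KLF4 itself overlapped with control.

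**Figure D2:**
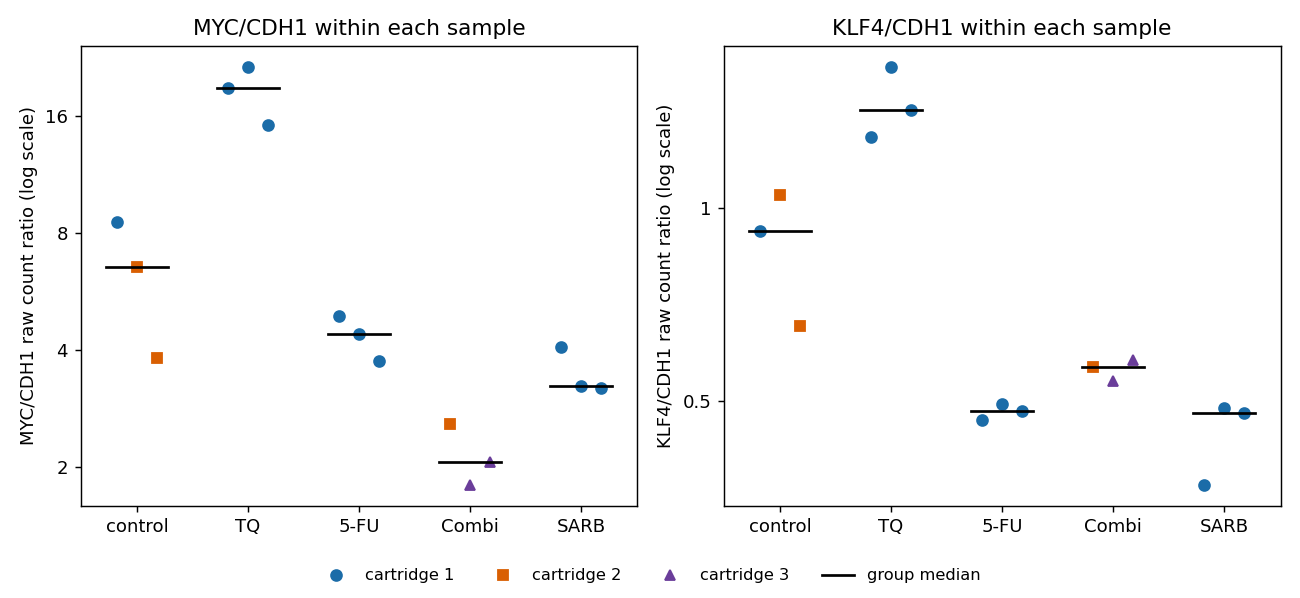
Ratios of raw counts within each sample (y axes, log scale), MYC to CDH1 on the left and KLF4 to CDH1 on the right, for the 5 groups (x axes). Points are samples by cartridge and black lines group medians, and TQ is the highest group in both ratios, with MYC/CDH1 from 15.2 to 21.4.

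Over the 15 samples the log2 scaled counts of PROM1 and KLF4 had a Pearson r of 0.75, those of PROM1 and MYB 0.62 and those of MYC and CDH1 -0.83, while MYC and SOX9 had -0.01. These samples share treatments and cartridges, so the correlations are descriptive. Among 513 genes with a mean raw count of at least 20, the genes most like each member by the same measure, among those reported here, were FGF19 (0.87) and HOXA9 (0.84) for PROM1, NPM2 (0.84) and WHSC1L1 (0.77) for SOX9, and MTOR (0.90) and LEPR (0.89) for KLF4. For MYC they were SETD2 (0.94) and SMARCA4 (0.89), for MYB THEM4 (0.89), and for CDH1 FN1 (0.96) and NOTCH3 (0.96). NPM2 had low counts, at 14.7 to 19.1 scaled counts in TQ and 18.1 to 42.0 in control. In some samples it did not pass the background limit. SETD2, a histone methyltransferase gene, measured 373 to 526 scaled counts in TQ and 166 to 349 in all other samples. NOTCH3, a NOTCH receptor gene, measured 29.4 to 32.4 in TQ, 69.5 to 116 in control and 211 to 288 in Combi, and so had the same lowest and highest groups as CDH1.

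Of 30 listed stem and progenitor genes, 5 were on the panel, and these were called lower or not at all. The count of lower genes was 2 for TQ, 4 for 5-FU, 2 for Combi and 4 for SARB, with none higher. In SARB the called genes were RNF43 (-1.5), a ubiquitin ligase that removes WNT receptors, ID1 (-1.38) and ID2 (-1.0), inhibitors of basic helix-loop-helix factors, and AXIN2 (-1.19), a feedback inhibitor of WNT signaling. In 5-FU the same 4 genes were called, ID1 at -1.19, AXIN2 at -0.89, RNF43 at -0.84 and ID2 at -0.76. In Combi they were ID2 (-0.80) and AXIN2 (-0.68), and in TQ KIT (-1.73), a receptor tyrosine kinase gene with a mean raw count of 18.7, and ID1 (-0.62). RNF43, AXIN2 and the ID genes are known as feedback or target genes and are not themselves stem cell surface markers. Under TMM 0, 2, 1 and 4 genes were called lower in TQ, 5-FU, Combi and SARB, and with cartridge as a block 1, 2, 2 and 3. The list's median log2 change was -0.33 (TQ), -0.89 (5-FU), -0.26 (Combi) and -1.19 (SARB). The panel's medians were -0.47, -0.27, -0.10 and -0.41, so in TQ the list fell no more than the panel.

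Of 30 listed differentiation genes, 12 were on the panel. TQ had 1 called lower and 5-FU 2 called higher. Combi had 5 called higher and 1 lower, whereas SARB had 1 called higher and 4 lower. In Combi the ligand genes DLL4 (1.38) and JAG1 (0.85) and the receptor gene NOTCH1 (0.93) rose, and the growth factor gene BMP4 fell (-0.95). All 5 genes called higher in Combi encode NOTCH ligands or a NOTCH receptor. Their count is therefore not a measure of differentiation, which was not tested. In SARB NOTCH1 rose (1.25), and SOX17 (-1.79) and BMP4 (-0.94) fell. NOTCH1 and JAG1 rose in 5-FU (1.76 and 0.60), and SOX17 fell in TQ (-1.93). Under TMM the higher and lower calls numbered 1 and 1 (TQ), 4 and 1 (5-FU), 5 and 1 (Combi) and 4 and 3 (SARB). With cartridge as a block they were 0 and 0, 2 and 0, 2 and 1, and 2 and 1. The list's median was -0.43, 0.21, 0.43 and 0.14 in TQ, 5-FU, Combi and SARB, beside the panel's -0.47, -0.27, -0.10 and -0.41.

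Of 20 listed adherens junction and epithelial-mesenchymal transition genes besides CDH1, 6 were on the panel. Their median log2 change was -0.99 (TQ), -0.24 (5-FU), -0.34 (Combi) and -0.50 (SARB), beside the panel's -0.47, -0.27, -0.10 and -0.41. In TQ 3 of the 6 were called lower (21.6% of all genes), TGFB2 (-1.14), FN1 (-1.11) and CTNNB1 (-0.64). CTNNB1 encodes β-catenin, the partner of E-cadherin. None of the 6 was called in 5-FU (10.1% of all genes higher and 10.1% lower). FN1 (1.04) and TGFB1 (0.99) rose in Combi (13.6% of all genes), and TGFB1 (0.77) rose in SARB (8.63%). FN1, the fibronectin gene, thus fell in TQ and rose in Combi like CDH1, at 11.1 to 20.5 scaled counts in TQ and 60.2 to 74.8 in Combi. Its counts were low, at 24.2 to 50.4 scaled counts in control, where replicate 2 did not pass the background limit. Under TMM none was called in TQ, and with cartridge as a block none was called in TQ or Combi.

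Of 20 listed MYC partners and targets, 9 were on the panel. In TQ none was called with housekeeping scaling, under which MYC itself was not called. Under TMM, where MYC was called higher, CDC25A was called higher too, and with cartridge as a block CDC25B was called lower. NPM1, a nucleolar protein gene, fell in 5-FU (-1.26), Combi (-1.53) and SARB (-1.19), CDK4 fell in Combi (-0.99), and SKP2 fell in SARB (-0.72). The NPM1 calls in 5-FU and SARB held under TMM and with cartridge as a block, while NPM1 and CDK4 in Combi were not called with the block and SKP2 in SARB was called with neither. CDC25A, a cell cycle phosphatase gene, rose in 5-FU (0.65) and SARB (0.66). Of 10 listed MYB relatives and targets, 6 were on the panel, with medians of -0.34 (TQ), -0.40 (5-FU), -0.27 (Combi) and -0.75 (SARB). CCNB1, the cyclin B1 gene, fell in 5-FU (-1.26), Combi (-1.63) and SARB (-1.71). In SARB CCNE1, the cyclin E1 gene, differed by 0.49 (edgeR adjusted p = 0.00576), short of the fold limit, and was called higher under TMM. CCNE1 was called higher in TQ (0.79), 5-FU (0.64) and Combi (0.82), and KIT fell in TQ. These CCNB1 and CCNE1 calls held under TMM and with cartridge as a block. Of 9 listed SOX and KLF relatives, SOX17 and SP1 were on the panel, and SOX17 fell in TQ and SARB, calls that held under TMM and were lost with cartridge as a block.

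**Figure D3:**
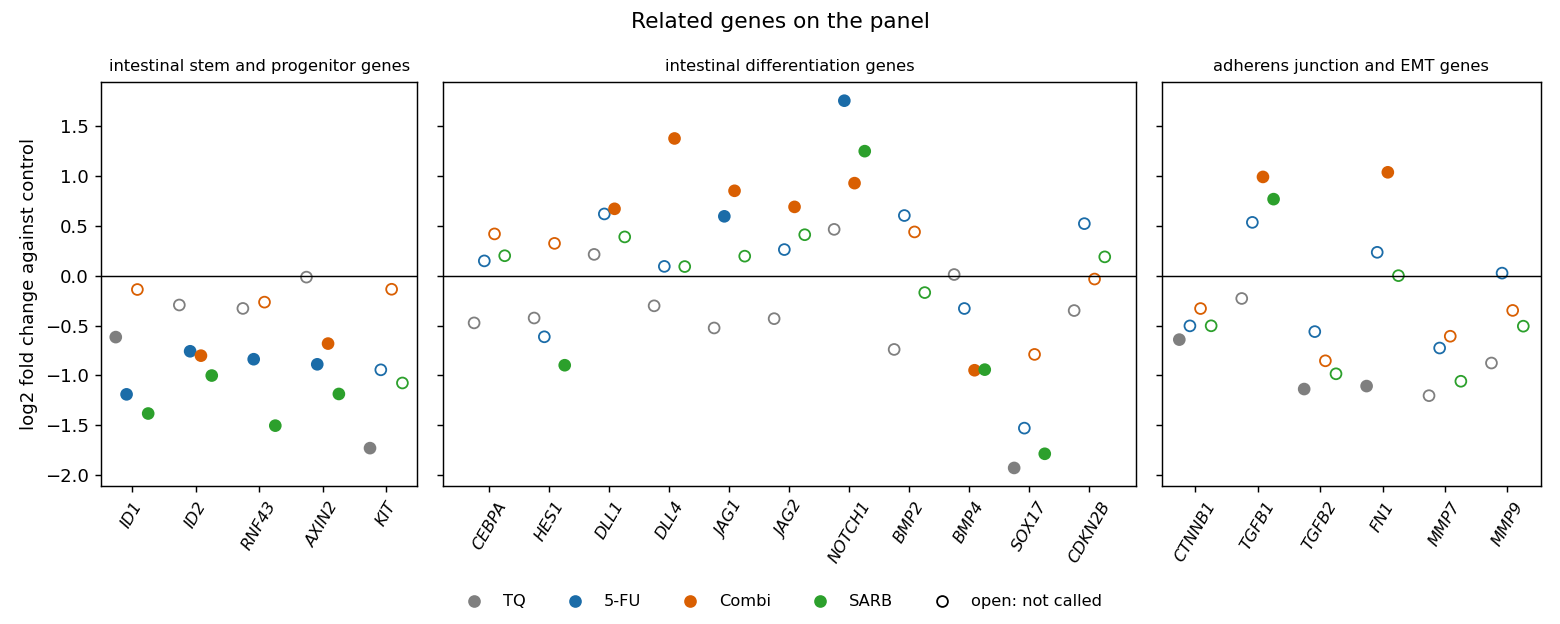
Log2 fold change against control (y axis) of the stem and progenitor, differentiation, and adherens junction genes on the panel that are reported here (x axis), with 1 color per treatment. Filled points were called and open points were not, and no filled stem and progenitor point lies above 0.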

How the data were processed

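Total RNA (50 ng) of HCT116 cells was hybridized to the NanoString nCounter PanCancer Pathways panel, and the authors processed the barcodes with nSolver 3.0. The authors deposited raw counts of 730 endogenous genes, 40 housekeeping genes and control probes (8 negative, 6 positive). They also deposited a normalized signal per gene. It was reproduced to within 1%, for 100% of values, by taking the geometric mean over negative probes from each raw count and multiplying by 1 factor per sample. That factor was fitted to the deposited signal itself, and values below 1 were set to 1 after each step. How the background was subtracted is not given in the sources used here. A deposited table of fold changes and p-values against control was not used. Groups were taken from the sample titles, and cartridges from the raw file names given with each sample.

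Raw counts were scaled to the housekeeping geometric mean, and all 15 samples entered 1 quasi-likelihood fit (edgeR 4.0.16, R 4.3.3) with p-values adjusted by Benjamini-Hochberg over 730 genes. The script was tested on simulated data. Alternatives were TMM, DESeq2 1.42.0, limma 3.58.1 on the deposited signal, a minimum mean count of 20, only the groups compared, cartridge or replicate number as a block, and leaving out each sample. Alternatives for comparisons between 2 treatments other than SARB against Combi, and for gene lists, were chosen after seeing the data. The members, gene lists and alternatives were chosen with earlier results of these data known. Of each list, the genes called against control were named, at most the 4 with the largest change per comparison, and for each member the 2 genes with the highest Pearson r of log2(scaled count + 1). Some genes that this rule names are not reported here. The 3 samples per group limit the precision of all members, and low counts that of MYB.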

Additional observations from a re-analysis of the deposited data

How the results depend on the processing

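Counts of called members are given for TQ, 5-FU, Combi and SARB against control and for SARB against Combi. They were 2, 2, 1, 2 and 2. With cartridge as a block each of these 5 counts was 0. That fit sets TQ, 5-FU and SARB against control replicate 1 alone, so a lost call can reflect fewer samples. The count was 1 in TQ and 1 in SARB against Combi with limma on the deposited signal, 2 in Combi and 3 in SARB, where MYC was the added call in both. In 5-FU it was 1 under TMM and 0 with DESeq2, in SARB 0 under both, and in SARB against Combi 1 under both. Leaving out 1 sample at a time gave 1 to 2, 0 to 3, 1 to 2, 2 to 4 and 1 to 2 called members.

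Directions turned in TQ under TMM for PROM1 (0.10), SOX9 (0.037) and KLF4 (0.11), and with DESeq2 (0.14, 0.075 and 0.14). PROM1 in SARB became 0.0047 under TMM and 0.014 with DESeq2. SOX9 became -0.0064 in 5-FU with limma and 0.015 in SARB against Combi with DESeq2. With cartridge as a block PROM1 in Combi became -0.094, MYC, MYB and CDH1 in SARB against Combi became -0.19, 0.33 and 0.22, and CDH1 in Combi against 5-FU became -0.15. Without 1 sample SOX9 in 5-FU ran from -0.087 to 0.26, CDH1 in 5-FU from -0.11 to 0.58, SOX9 in Combi from -0.31 to 0.055, CDH1 in SARB from -0.039 to 0.66 and MYC in SARB against Combi from -0.052 to 0.16. The cause of these shifts was not tested beyond the scaling medians given in the report.

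With the replicate number as a block (replicate block) the counts were 2, 2, 1, 2 and 2, unchanged. Samples of equal number did not deviate together, with correlations of -0.67 to 0.39 over 30 pairs, 9 of them over 0.1, so the numbers were not taken to pair the samples. MYB, with raw counts from 21, is the member whose fold changes depth limits most.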
